A study of Mus musculus with 25 samples.

Results

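The 39 genes described here carry out or control the making of cholesterol and fatty acids. They were chosen by symbol as parts of that pathway from 18194 genes measured in salivary glands. All 39 had at least 1 probe set (a group of short probes on the array that reads 1 transcript) annotated to 1 symbol, 90 probe sets in all, and 35 had an expressed probe set, meaning a mean log2 signal above 3.27. Nr1h3, Mvd, Sqle and Hsd17b7 did not. The genes fall into 7 groups by role: regulators, the mevalonate steps, the steps from squalene to cholesterol, fatty acid synthesis, fatty acid elongation and desaturation, glycerolipid assembly, and sterol export.

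Cholesterol and fatty acids are both built from acetyl-CoA. Sterol regulatory element-binding proteins (SREBPs) drive the genes of both routes: the SREBP-1 forms, encoded by Srebf1, act mainly on fatty acid genes, and SREBP-2, encoded by Srebf2, mainly on sterol genes. When membrane sterol is low, the escort protein SCAP carries SREBPs to the Golgi to be cut and released, and when it is high, INSIG proteins hold them back. The liver X receptors, which sense oxidized sterols, drive export genes such as Abca1 and Abcg1. A salivary gland needs membrane lipid for its secretory granules.

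RNA came from male C57BL/6.NOD-Aec1Aec2 mice aged 4, 8, 12, 16 or 20 weeks. Each age had 5 mice, and each mouse its own array. This strain, a model of Sjögren's syndrome, carries the Idd3 interval of chromosome 3 and the Idd5 interval of chromosome 1 from the NOD mouse on a C57BL/6 background. All 5 groups share both intervals, no C57BL/6J parent was analysed here, and disease stage and age therefore cannot be told apart. Per the study's methods, each sample pooled a lobe of the submandibular, sublingual and parotid glands of 1 mouse after the lymph nodes were removed, and the mice of an age came from more than 1 litter.

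Acinar and duct products were among the brightest genes: mean log2 signals over the 25 arrays were 15.32 for Prol1, 14.73 for Klk1 and 14.49 for Egf. Amylase (Amy1), a parotid product, ranged from 8.42 to 16.00 between mice. The array of 20-week mouse 3 stood apart. Its correlation with the others of its age had a median of 0.887, where that of the other 24 arrays was at least 0.973, and its Gapdh signal was 3.87 log2 units higher in the 3' than in the 5' probe set, a gap of 0.05 to 1.68 on the other arrays. There, 18 members lay below and 10 above all other 20-week mice. The same count was not made over all genes, so these numbers cannot be read as particular to the members. Calls of members that end or appear when the array of 20-week mouse 3 is left out are given both ways below. Lymph node and B cell genes varied too: Glycam1, of lymph node venules, was 4.14, 4.27, 9.11, 9.62 and 8.07 in 4-week mice 1 to 5 and 3.77 to 4.19 at 12 weeks, and Cd79a, of the B cell receptor, was 8.64 and 8.52 in 16-week mice 3 and 4 and at most 5.71 elsewhere. The 4-week mice, the reference of every age, were thus unequal in Glycam1, and its part in the results was not tested.

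**Figure D1:**
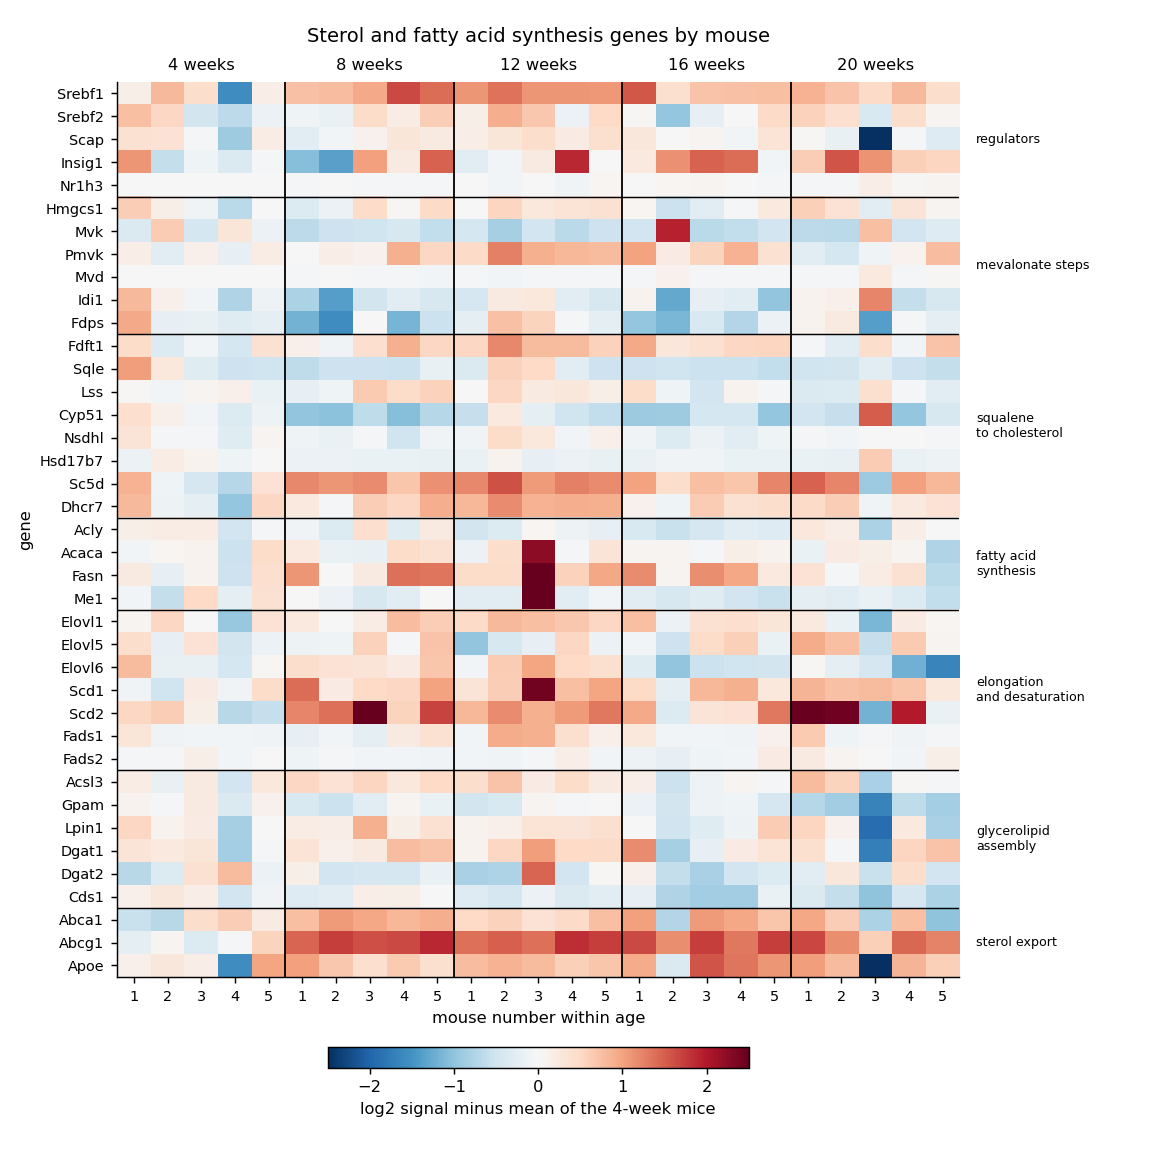
Each column is 1 mouse, each row 1 of the 39 genes, and colour is the log2 signal minus the mean of the 4-week mice, limited to 2.5 in either direction. Abcg1 is red in every mouse older than 4 weeks, Fasn, Me1, Acaca and Scd1 are darkest in 12-week mouse 3, and Apoe and Scap are darkest blue in 20-week mouse 3.

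Few of the genes changed with age, and 1 of them, the exporter Abcg1, rose at every age. A change here means an adjusted p under 0.05 in limma, a linear model fitted to all 25 arrays, with Benjamini-Hochberg adjustment over all 18194 genes, and every age was set against the same 4-week mice. At 8 weeks 1 of the 39 rose and 0 fell, where 1.48% of all genes rose and 0.78% fell. At 12 weeks 7 rose, or 17.9% of the 39, and 0 fell, against 5.66% and 1.36% of all genes. The 16-week mice had 1 member higher and 0 lower, against 1.71% and 1.68%. The 20-week mice had 1 higher and 2 lower, against 1.14% and 1.52%. All genes include many dim ones, which most of the 39 were not. Tested among only the 11696 genes with an expressed probe set, 7 members again rose at 12 weeks. They were 20.0% of the members in that set, beside 10.8% of its genes. In whole glands, fewer cells of a type and less RNA per cell cannot be told apart.

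The median log2 fold change of the 39 genes was 0.15 at 8 weeks, 0.36 at 12 weeks, -0.01 at 16 weeks and 0.01 at 20 weeks, beside medians of -0.03, -0.03, -0.02 and 0.04 over all genes. Part of the 12-week difference was shared with the arrays as a whole: expressed genes had medians of 0.10 at 8 weeks and 0.14 at 12 weeks. Quantile normalization, which gives every array the same distribution of values, brought these to -0.03 and -0.01. It also brought the members' 12-week median to 0.03 and the 12-week count to 2 higher and 3 lower members, where all genes went from 1029 higher and 247 lower to 659 and 504. At 8 weeks the split of all genes went from 269 higher and 142 lower to 287 and 319.

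Over the 5 ages together, a moderated F-test passed Pmvk, Elovl6, Gpam, Cds1 and Abcg1, 5 of the 39 genes beside 4.66% of all genes. The B-statistic (the log odds of a change, threshold 1.5) passed Abcg1, Gpam and Cds1, beside 1.92% of all genes. Leaving out 20-week mouse 3, the F-test passed Fdps, Cyp51 and Sc5d as well, 8 members beside 12.1% of all genes, and the B-statistic passed Abcg1 and Gpam, beside 2.59%, as that of Cds1 went from 1.65 to 0.29. Between neighbouring ages 0 members were called from 8 to 12, 12 to 16 or 16 to 20 weeks, where 0.0055%, 0.0055% and 0.0275% of all genes were called, and the smallest adjusted p of any member was 0.183. By unadjusted p-values under 0.05, 4 members were higher and 0 lower from 8 to 12 weeks, beside 476 and 227 of the 18194 genes. From 12 to 16 weeks 0 were higher and 7 lower, beside 399 and 996. From 16 to 20 weeks 0 were higher and 3 lower, beside 697 and 616.

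In sterol export, Abcg1 had the largest fold change among the called members. ABCG1 moves cholesterol out of cells onto lipoprotein particles. Abcg1 had log2 signals of 5.25, 5.54, 5.13, 5.44 and 6.03 in 4-week mice 1 to 5, and of 6.93, 7.20, 7.09, 7.14 and 7.36 in 8-week mice. At 12 weeks the mice had 6.85, 6.97, 6.86, 7.32 and 7.21, at 16 weeks 7.13, 6.64, 7.21, 6.80 and 7.22, and at 20 weeks 7.16, 6.65, 6.09, 6.92 and 6.72. The highest 4-week mouse lay below the lowest mouse of every later age, and the later ages overlapped one another.

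Abcg1 rose by 1.66 log2 units at 8 weeks (SE 0.18, adjusted p = 9.06e-06), a 3.17-fold difference. It was higher than at 4 weeks by 1.56 at 12 weeks (adjusted p = 1.59e-05), by 1.52 at 16 weeks (adjusted p = 2.05e-05) and by 1.22 at 20 weeks (adjusted p = 0.000355), each with an SE of 0.18. Without 20-week mouse 3 the last was 1.38 (adjusted p = 3.08e-05). Both probe sets of the gene passed at every age: the brighter by 1.30, 1.20, 1.26 and 1.10 log2 units in age order, and the dimmer by 2.02, 1.92, 1.78 and 1.35.

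Macrophages are among the cells known to carry ABCG1. Of 9 macrophage markers, 7 had a difference above 0 at 8, 12 and 16 weeks and 8 at 20 weeks, and the 1 call was C1qb, a complement gene, which rose by 0.94 at 16 weeks (adjusted p = 0.0468). The log2 of their summed signal was 10.46 to 11.47 at 4 weeks, 10.69 to 11.68 at 8 weeks, 11.11 to 11.71 at 12 weeks, 10.30 to 12.88 at 16 weeks and 10.37 to 12.02 at 20 weeks. By this sum 4 weeks overlapped every later age, but the complement gene C1qa did not at 8 and 12 weeks: it was 6.57 to 7.66 at 4 weeks, 7.68 to 8.24 at 8 weeks and 8.44 to 9.03 at 12 weeks. C1qb was 7.56 to 8.36 at 4 weeks and 8.58 to 8.92 at 12 weeks. Their part in the Abcg1 change was not tested.

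Abca1, the exporter that loads cholesterol onto lipid-poor apolipoproteins, had the same sign at each age without passing: its log2 differences from 4 weeks were 0.91, 0.53, 0.61 and 0.11. Apoe, the apolipoprotein that carries cholesterol between cells, had 9.32, 9.48, 9.38, 7.65 and 10.19 at 4 weeks, 10.23, 9.88, 9.62, 9.85 and 9.59 at 8 weeks and 9.97, 10.06, 9.99, 9.80 and 9.89 at 12 weeks. It had 10.12, 8.85, 10.78, 10.55 and 10.31 at 16 weeks and 10.24, 9.98, 3.46, 10.05 and 9.81 at 20 weeks. The low values were those of 4-week mouse 4 and, far below all others, 20-week mouse 3. The Apoe difference at 20 weeks was -0.49 (SE 0.87, adjusted p = 0.859) with that mouse and 0.82 (adjusted p = 0.193) without it, a change of sign, and it passed at neither.

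**Figure D2:**
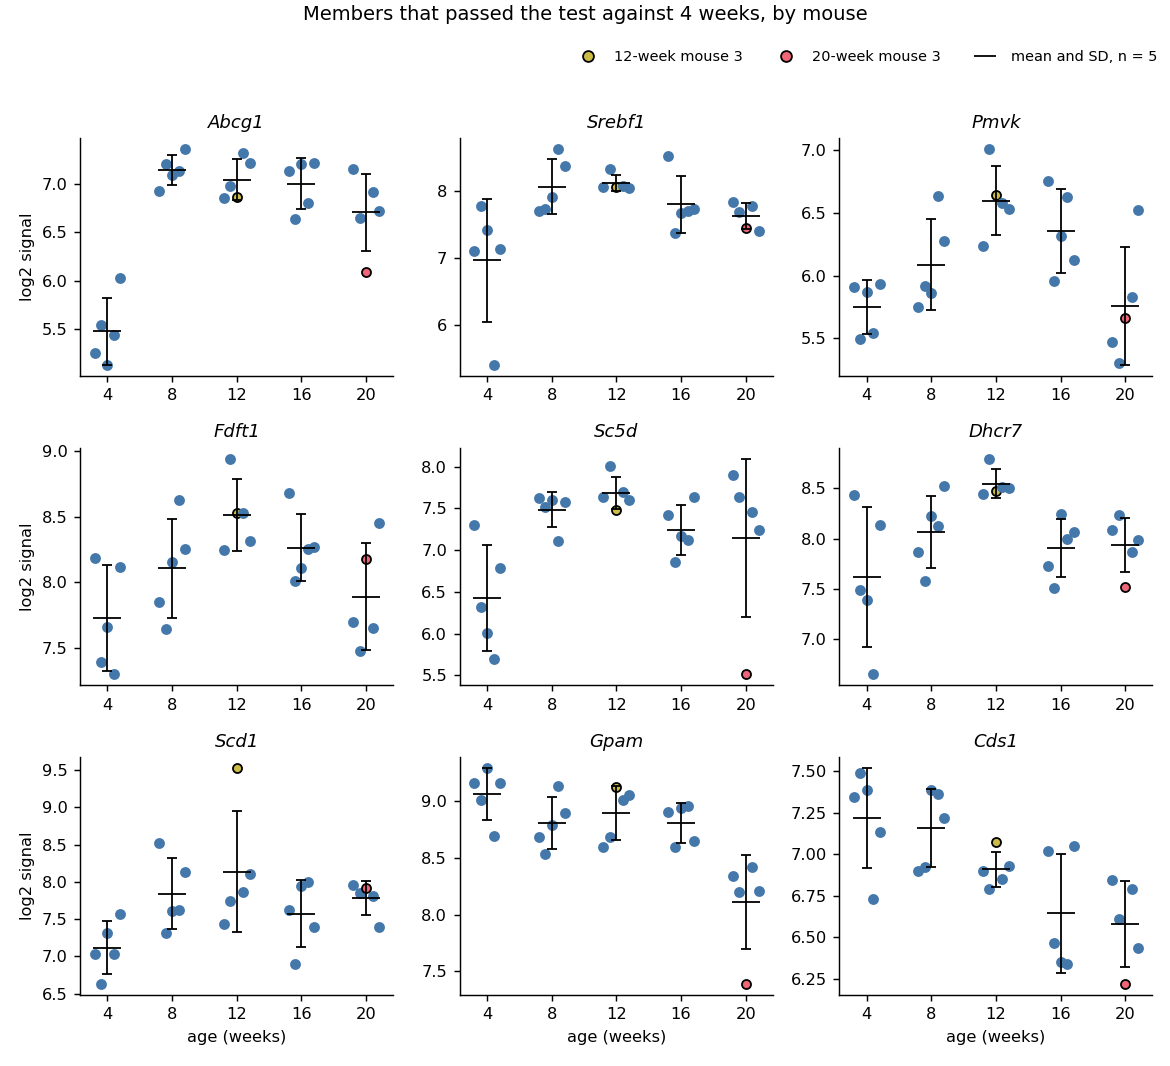
Log2 signal of each mouse by age in weeks for the 9 genes that passed against 4 weeks, with bars for the mean and SD of 5 mice. Abcg1 separates 4 weeks from all later ages, and Gpam is low at 20 weeks only. Srebf1, Pmvk, Fdft1, Sc5d and Dhcr7 have their highest mean at 12 weeks, but no member was called between neighbouring ages. The Srebf1 mean was 8.06 at 8 weeks and 8.11 at 12 weeks. Coloured points mark 12-week mouse 3 and 20-week mouse 3.

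Among the 5 regulators, Srebf1 rose at 12 weeks. Its signals were 7.10, 7.77, 7.41, 5.40 and 7.12 at 4 weeks, 7.69, 7.73, 7.90, 8.62 and 8.37 at 8 weeks and 8.06, 8.33, 8.06, 8.07 and 8.04 at 12 weeks. They were 8.52, 7.36, 7.66, 7.70 and 7.72 at 16 weeks and 7.83, 7.68, 7.44, 7.77 and 7.39 at 20 weeks. All 5 mice of 12 weeks lay above all 5 of 4 weeks and close to one another, and 4-week mouse 4 was far below the rest. The 12-week difference was 1.15 (SE 0.31, adjusted p = 0.0252). It was 1.10 at 8 weeks (adjusted p = 0.0609), and 0.83 and 0.66 at the 2 later ages. Without 20-week mouse 3, the 8-week difference passed as well (adjusted p = 0.0386). The gene is read by 1 probe set, so the SREBP-1a and SREBP-1c forms were not separated.

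Srebf2 had 6.80, 6.56, 5.58, 5.38 and 5.89 at 4 weeks, 5.94, 5.88, 6.51, 6.24 and 6.66 at 8 weeks and 6.18, 6.95, 6.71, 5.90 and 6.53 at 12 weeks. It had 6.06, 5.07, 5.83, 6.04 and 6.52 at 16 weeks and 6.62, 6.47, 5.66, 6.48 and 6.12 at 20 weeks. All ages overlapped, and its largest difference from 4 weeks was 0.41 at 12 weeks (SE 0.29, adjusted p = 0.482). Its 2 probe sets differed: at 12 weeks 1 gave 0.88 and the other -0.05, and at 16 weeks 0.55 and -0.82, none of them passing.

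The other regulators did not pass at any age with the values as deposited. Insig1, whose product holds SREBPs in the endoplasmic reticulum, had the largest difference of these, 0.89 at 20 weeks (SE 0.51, adjusted p = 0.553), and its mice ranged from 7.34 to 10.58. Scap lay between 8.27 and 9.61 in 24 mice and at 6.34 in 20-week mouse 3. After quantile normalization, with that mouse included, Scap was called lower at 20 weeks, where 3.74% of all genes were. Nr1h3, which encodes liver X receptor alpha, gave 2.31 to 2.57 in every mouse, below the level taken as expressed.

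Of the 6 mevalonate steps, which turn acetyl-CoA into farnesyl diphosphate, Pmvk alone passed. It encodes phosphomevalonate kinase. Pmvk signals were 5.91, 5.49, 5.87, 5.54 and 5.93 at 4 weeks, 5.75, 5.92, 5.86, 6.64 and 6.28 at 8 weeks and 6.24, 7.01, 6.64, 6.58 and 6.53 at 12 weeks. They were 6.75, 5.96, 6.31, 6.63 and 6.12 at 16 weeks and 5.47, 5.31, 5.66, 5.83 and 6.52 at 20 weeks. The 12-week mice did not overlap the 4-week mice, while the 20-week mice did. The differences were 0.34, 0.85, 0.61 and 0.01 in age order (SE 0.21), with adjusted p = 0.0174 for 12 weeks and 0.135 for 16 weeks.

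Hmgcs1, the enzyme that makes HMG-CoA, had 8.10, 7.63, 7.39, 6.80 and 7.49 at 4 weeks, 7.14, 7.33, 7.93, 7.51 and 7.96 at 8 weeks and 7.50, 8.01, 7.75, 7.83 and 7.86 at 12 weeks. It had 7.52, 6.94, 7.19, 7.44 and 7.73 at 16 weeks and 8.09, 7.84, 7.21, 7.80 and 7.56 at 20 weeks. All ages overlapped, and the differences lay between -0.12 and 0.31, all with adjusted p of at least 0.464. Fdps, which makes farnesyl diphosphate, had the largest difference of the mevalonate group, -0.88 at 8 weeks (SE 0.33, adjusted p = 0.194), with mice from 5.84 to 7.40 at 8 weeks and 7.08 to 8.34 at 4 weeks. Idi1 had -0.67 at 8 weeks and Mvk -0.59 at 12 weeks, neither passing. Mvk was 6.63 in 16-week mouse 2 and 3.88 to 5.45 in the other 24 mice. Mvd stayed between 2.11 and 2.41, below the expressed level.

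The promoter of Hmgcs1 is shown because it was the only member window that held the sterol regulatory element searched for, TCACNCCAC on either strand. RefSeq gave windows for 30 of the 39 genes (42 windows in GRCm38.p6, each from 250 bases before to 50 after a start). Of all 32851 windows, 1.24% held these letters, against 1 of the 42. The 250 bases before the start, chr13:119690101-119690350 on the plus strand, follow with the match in capitals, 137 to 129 bases before the start.
Hmgcs1: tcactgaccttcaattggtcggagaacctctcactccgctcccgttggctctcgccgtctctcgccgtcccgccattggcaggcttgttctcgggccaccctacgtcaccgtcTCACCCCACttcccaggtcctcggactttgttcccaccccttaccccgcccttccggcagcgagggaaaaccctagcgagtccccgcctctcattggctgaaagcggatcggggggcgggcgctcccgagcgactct
A match is a description of these letters and was not tested as a binding site.

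Of the 8 genes from squalene to cholesterol, Fdft1, Sc5d and Dhcr7 rose at 12 weeks. Fdft1 encodes squalene synthase, the first enzyme committed to sterols. Its signals were 8.18, 7.40, 7.66, 7.30 and 8.12 at 4 weeks, 7.85, 7.65, 8.16, 8.62 and 8.26 at 8 weeks and 8.25, 8.94, 8.53, 8.53 and 8.31 at 12 weeks. They were 8.68, 8.01, 8.11, 8.25 and 8.27 at 16 weeks and 7.70, 7.48, 8.18, 7.66 and 8.45 at 20 weeks. The 12-week mice lay above all 4-week mice, though the nearest pair was close. Fdft1 differed by 0.38, 0.78, 0.53 and 0.16 log2 units in age order (SE 0.21), with adjusted p = 0.0304 at 12 weeks. Its brighter expressed probe set gave 0.93 there and passed, and the other gave 0.63 and did not.

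Sc5d encodes sterol C5-desaturase, a late step. Sc5d signals were 7.30, 6.32, 6.01, 5.70 and 6.79 at 4 weeks, 7.63, 7.52, 7.60, 7.11 and 7.57 at 8 weeks and 7.63, 8.01, 7.49, 7.69 and 7.60 at 12 weeks. They were 7.42, 6.86, 7.17, 7.12 and 7.64 at 16 weeks and 7.90, 7.64, 5.51, 7.46 and 7.24 at 20 weeks. The 12-week mice were clear of the 4-week mice, and 20-week mouse 3 was below every other mouse of the series. Sc5d differed by 1.06, 1.26, 0.82 and 0.73 log2 units in age order (SE 0.33), and adjusted p = 0.0243 at 12 weeks. Without 20-week mouse 3 it passed at all 4 ages, with 1.14 at 20 weeks (adjusted p = 0.00572) and adjusted p = 0.000926 at 12 weeks. Its 3 probe sets gave 1.25, 2.55 and -0.02 at 12 weeks, from brightest to dimmest, and 1 of them, the middle one, passed when tested singly.

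Dhcr7 encodes the enzyme that completes cholesterol. Dhcr7 signals were 8.43, 7.48, 7.39, 6.65 and 8.14 at 4 weeks, 7.87, 7.57, 8.23, 8.13 and 8.53 at 8 weeks and 8.45, 8.80, 8.48, 8.52 and 8.50 at 12 weeks. They were 7.73, 7.51, 8.24, 8.00 and 8.06 at 16 weeks and 8.09, 8.23, 7.52, 7.87 and 7.98 at 20 weeks. The lowest 12-week mouse lay barely above the highest 4-week mouse, and the 4-week mice were widely spread. Dhcr7 differed by 0.45, 0.93, 0.29 and 0.32 log2 units in age order (SE 0.24), with adjusted p = 0.0238 at 12 weeks.

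Sc5d and Dhcr7 were 2 of 7 members with a window that held the E-box letters CACGTG, which read the same on both strands. These letters were in 8 of the 42 member windows and in 7.15% of all windows. The bases before 1 start of each gene are shown because both genes rose at 12 weeks, with the letters in capitals: chr9:42264301-42264550 on the minus strand for Sc5d, and chr7:143823149-143823398 on the plus strand for Dhcr7, 1 of its 3 windows.
Sc5d: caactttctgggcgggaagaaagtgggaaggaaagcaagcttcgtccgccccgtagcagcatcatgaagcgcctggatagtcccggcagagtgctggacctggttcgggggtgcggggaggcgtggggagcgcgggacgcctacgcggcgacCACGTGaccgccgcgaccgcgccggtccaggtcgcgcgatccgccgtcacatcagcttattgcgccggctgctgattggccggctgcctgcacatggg
Dhcr7: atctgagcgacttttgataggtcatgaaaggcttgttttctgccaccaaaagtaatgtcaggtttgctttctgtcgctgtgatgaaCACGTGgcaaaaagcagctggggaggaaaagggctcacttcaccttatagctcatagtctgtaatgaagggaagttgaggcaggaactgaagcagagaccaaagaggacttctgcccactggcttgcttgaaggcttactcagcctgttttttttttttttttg
The letters lie 98 to 93 bases before the Sc5d start and 164 to 159 bases before this Dhcr7 start, and the array does not tell which start was used.

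Cyp51, the sterol 14-demethylase, had the largest difference below 0 in the squalene group. Its 4-week mice had 6.18, 5.88, 5.70, 5.42 and 5.63 and its 8-week mice 4.77, 4.73, 5.12, 4.69 and 5.05. Its 20-week mice had 5.28, 5.19, 7.28, 4.79 and 5.37, of which mouse 3 was the highest of the 25. Every 8-week mouse lay below every 4-week mouse. The differences were -0.89, -0.34, -0.73 and -0.18 in age order (SE 0.31), and with all arrays none passed (adjusted p = 0.149 at 8 weeks). Without 20-week mouse 3 Cyp51 fell by 0.89 at 8 weeks (adjusted p = 0.00405), by 0.73 at 16 weeks (adjusted p = 0.0112) and by 0.60 at 20 weeks (adjusted p = 0.0403).

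Lss and Nsdhl had differences between -0.19 and 0.28 and did not pass. Sqle and Hsd17b7 were below the expressed level on average, though Sqle, which encodes squalene epoxidase, reached 3.56 in 4-week mouse 1, 3.09 in 12-week mouse 2 and 3.02 in 12-week mouse 3. The first of these mice also had the highest Fdps of the series at 8.34.

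The 12-week calls rested on a few arrays. Leaving out 12-week mouse 2, the highest of its age in Srebf1, Pmvk, Fdft1, Sc5d and Dhcr7, left 1 member called higher at 12 weeks, Abcg1, beside 2.54% of all genes. Leaving out 4-week mouse 4 left 2, beside 2.44%. Leaving out 12-week mouse 4, 4-week mouse 2 or 4-week mouse 3 left 3 each, beside 3.25%, 4.14% and 3.57%, so calls over all genes went down as well. The same 4-week mouse 4 had the lowest Srebf1, Sc5d, Dhcr7 and Apoe of its age and the highest Glycam1. Without 20-week mouse 3 there were 8, beside 13.3% of all genes, and without that mouse and 12-week mouse 3 there were 6, beside 11.7%. After quantile normalization Sc5d (1.02, adjusted p = 0.0163) and Abcg1 (1.32, adjusted p = 3.43e-06) still passed at 12 weeks, while Srebf1 had 0.81 (adjusted p = 0.0949), Pmvk 0.55 (adjusted p = 0.212), Fdft1 0.40 (adjusted p = 0.537), Dhcr7 0.56 (adjusted p = 0.105) and Scd1 0.67 (adjusted p = 0.338). The upper quartile of 4-week mouse 4 was 5.34 and those of the 12-week mice 5.69 to 5.93.

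Markers of other gland cells differed at the same age. All 5 myoepithelial markers were higher at 12 weeks, with a median difference of 1.17, and 1 of them, the contractile protein gene Cnn1, passed. The log2 of their summed signal was 11.93 to 13.28 at 4 weeks, 13.26 to 13.51 at 8 weeks, 13.38 to 13.55 at 12 weeks, 12.83 to 13.53 at 16 weeks and 11.89 to 13.39 at 20 weeks. Of 6 duct markers, 4 had a difference above 0 at 12 weeks without passing, among them the keratins Krt7 (1.42, adjusted p = 0.0653) and Krt19 (1.51, adjusted p = 0.104) and the sodium channel subunit Scnn1a (1.30, adjusted p = 0.0512), and the kallikrein Klk1 fell by 0.29, by 0.41 and by 0.43 at the last 3 ages. The log2 of the duct sum was 15.62 to 15.85 at 4 weeks and 15.72 to 15.89 at 12 weeks. Of 8 acinar markers, 7 had a difference below 0 at 12 weeks, none of them passing, and Smgc, a neonatal submandibular mucin, fell by 4.02 at 16 weeks and by 3.68 at 20 weeks. Their part in the changes of the 39 genes was not tested.

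**Figure D3:**
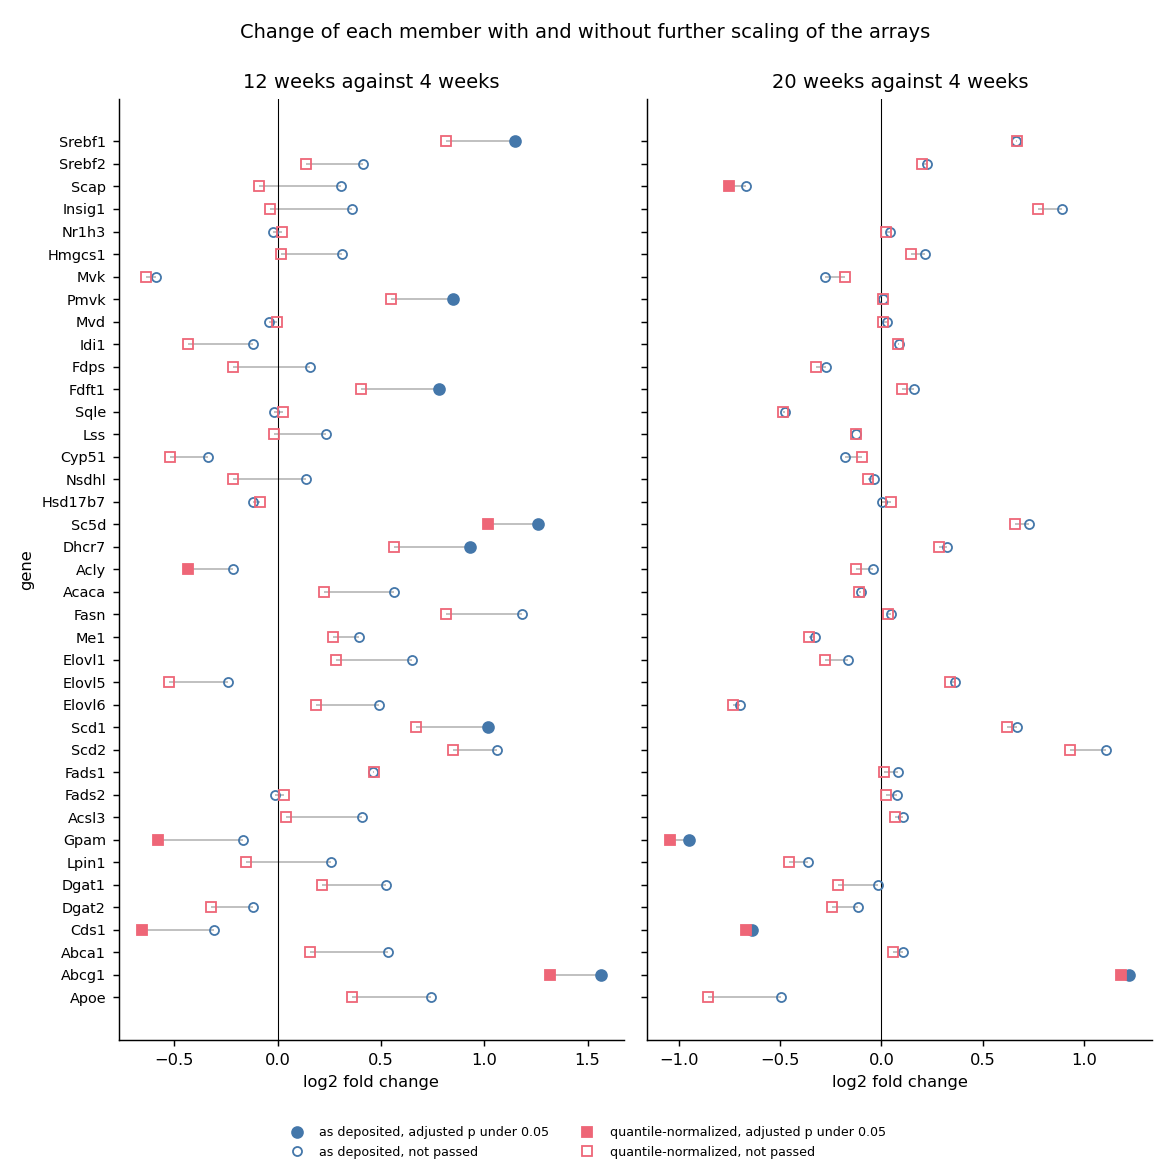
Log2 fold change of each gene at 12 weeks (left) and 20 weeks (right) against 4 weeks, from the values as deposited (circles) and after quantile normalization (squares), filled where the adjusted p was under 0.05. At 12 weeks nearly all expressed members move left under quantile normalization, Sc5d and Abcg1 stay filled and Acly, Gpam and Cds1 become filled below 0. At 20 weeks most pairs lie close together, and Scap becomes filled below 0.

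None of the 4 fatty acid synthesis genes passed at any age. Fasn, the synthase that builds palmitate, had 7.55, 7.13, 7.42, 6.82 and 7.76 at 4 weeks, 8.44, 7.32, 7.57, 8.71 and 8.68 at 8 weeks and 7.80, 7.80, 10.80, 7.91 and 8.30 at 12 weeks. It had 8.52, 7.41, 8.51, 8.30 and 7.57 at 16 weeks and 7.70, 7.32, 7.53, 7.72 and 6.67 at 20 weeks. At 12 weeks 4 mice lay close together and mouse 3 was far above them. The difference from 4 weeks was 1.18 at 12 weeks (SE 0.45, adjusted p = 0.119) and 0.80, 0.72 and 0.05 at the other ages.

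Mouse 3 at 12 weeks was high in much of the fatty acid route. Me1, malic enzyme, which supplies NADPH, was 7.84 there and 4.72 to 4.93 in the other 12-week mice. Acaca, acetyl-CoA carboxylase, was 8.84 and 6.48 to 7.05. Dgat2, which makes triglyceride, was 6.78 and 4.51 to 5.35. With Fasn and Scd1, 5 of the 39 genes lay over 1 log2 unit above the mean of the other 12-week mice, where 50 of the 18194 genes, or 0.275%, did. Acly, ATP citrate lyase, which makes cytosolic acetyl-CoA, was not among them: it was 6.98 there and 6.48 to 6.81 in the others.

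Fat cell markers were high in the same mouse. Of 8 adipocyte markers 6 were above all other 12-week mice. Adipoq was 8.49 there, 2.05 to 4.36 in the other 12-week mice and 1.86 to 7.22 over the other 24, and Fabp4 was 12.12 against 7.19 to 8.98 in the other 12-week mice. The log2 of the summed signal of the 8 markers was 12.27 in that mouse and 7.75 to 9.19 in the others of that age, and it ranged from 8.39 to 11.08 at 4 weeks, 7.30 to 10.90 at 8 weeks, 7.68 to 10.44 at 16 weeks and 8.02 to 10.27 at 20 weeks. Ucp1 and Cidea, genes of brown fat named after their values were seen, were 7.96 and 8.76 there. In the other 24 mice Ucp1 reached 5.53 and Cidea 4.37, in 4-week mouse 3. The part of fat tissue in the fatty acid values was not tested.

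**Figure D4:**
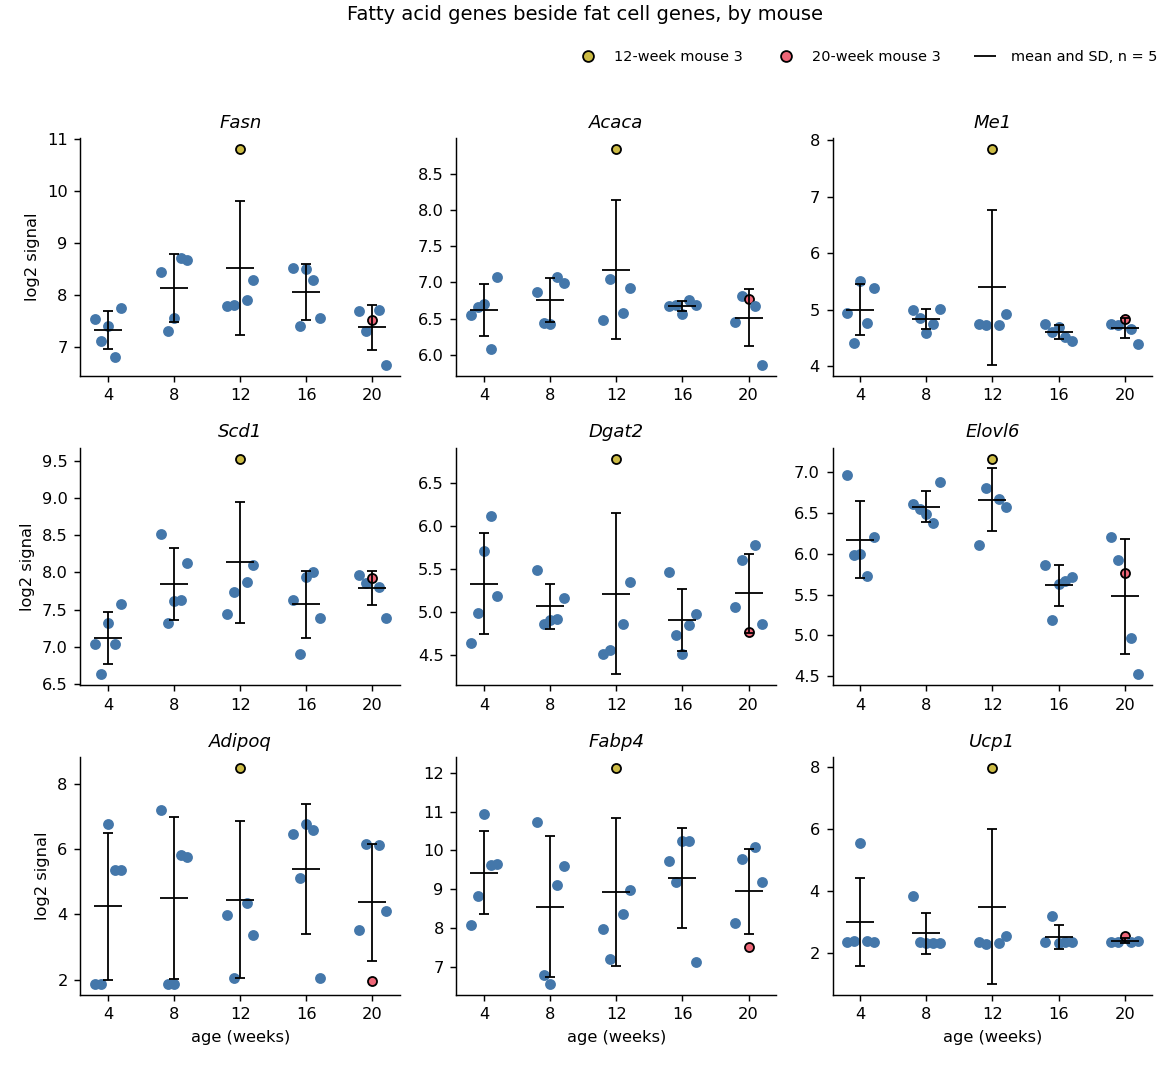
Log2 signal of each mouse by age in weeks for 6 fatty acid genes and 3 fat cell genes (bottom row), with bars for the mean and SD of 5 mice. The yellow point, 12-week mouse 3, is the highest of its age in all 9 panels and of the series in all 9.

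In the elongation and desaturation group, Scd1 passed at 12 weeks by a narrow margin. It encodes a stearoyl-CoA desaturase, which puts the double bond into oleate. Scd1 signals were 7.04, 6.63, 7.32, 7.03 and 7.57 at 4 weeks, 8.52, 7.31, 7.61, 7.63 and 8.13 at 8 weeks and 7.44, 7.74, 9.53, 7.87 and 8.10 at 12 weeks. They were 7.62, 6.90, 7.94, 8.00 and 7.39 at 16 weeks and 7.96, 7.85, 7.92, 7.81 and 7.39 at 20 weeks. The 4-week and 12-week mice overlapped, and 12-week mouse 3 was the highest of all. The 12-week difference was 1.02 (SE 0.31, adjusted p = 0.0497), and without that mouse it was 0.67 (adjusted p = 0.117). Of 36 alternative settings 24 ended this call.

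Scd2, another desaturase gene, differed by 1.5, 1.06, 0.52 and 1.11 log2 units in age order (SE 0.56) and did not pass, but its probe sets disagreed. The brightest gave 1.33, 1.38, 1.31 and 1.5 (SE 0.29) and, tested singly, passed at all 4 ages with adjusted p = 0.0226, 0.00812, 0.0163 and 0.00827. The others gave 1.62, 1.64, 0.78 and 0.85 (SE 1.03), and 1.55, 0.16, -0.53 and 0.97 (SE 0.59), and did not pass. The Scd2 gene value in 20-week mouse 3 was 5.46 where mice 1, 2 and 4 had 9.12, 9.07 and 8.62, and without that mouse the 20-week difference was 1.68 (adjusted p = 0.0326).

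Elovl6, which lengthens palmitate to stearate, passed the F-test over ages (adjusted p = 0.0186) and no single comparison with 4 weeks. Elovl6 signals were 6.96, 5.99, 5.99, 5.73 and 6.20 at 4 weeks, 6.61, 6.54, 6.49, 6.37 and 6.88 at 8 weeks and 6.11, 6.80, 7.17, 6.67 and 6.57 at 12 weeks. They were 5.86, 5.19, 5.63, 5.67 and 5.72 at 16 weeks and 6.21, 5.92, 5.76, 4.97 and 4.52 at 20 weeks. Every 12-week mouse lay above every 16-week mouse. The differences from 4 weeks were 0.40, 0.49, -0.56 and -0.70 (SE 0.27), and from 12 to 16 weeks -1.05 (SE 0.27, adjusted p = 0.284). Elovl1, Elovl5, Fads1 and Fads2 did not pass, with differences between -0.24 and 0.65. Elovl1 had the 0.65, at 12 weeks (adjusted p = 0.134), and passed without 20-week mouse 3 (adjusted p = 0.0423).

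**Figure D5:**
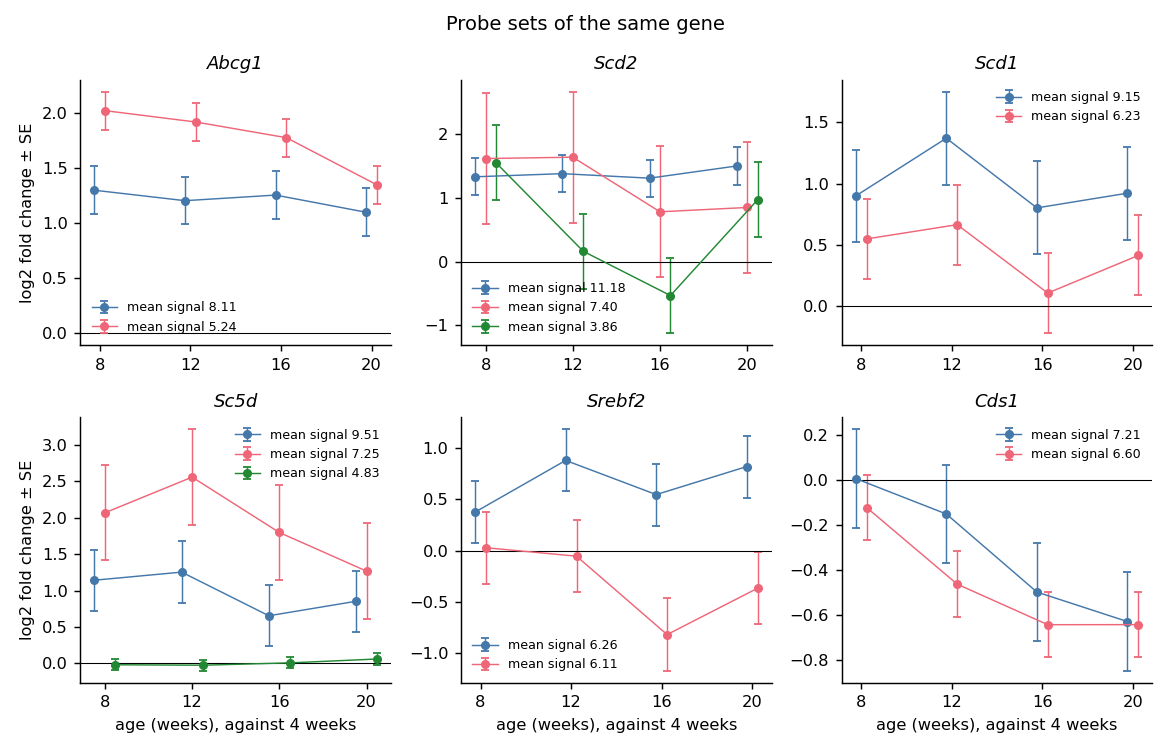
Log2 fold change against 4 weeks, with the SE, of each probe set of 6 genes, by age in weeks. A colour is 1 probe set, named by its mean signal. Both Abcg1 probe sets lie above 0 at all ages, whereas those of Srebf2 lie on opposite sides of 0 from 12 weeks and those of Scd2 and Sc5d differ in size.

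In glycerolipid assembly, Gpam and Cds1 fell at 20 weeks. Gpam encodes the mitochondrial acyltransferase that starts triglyceride synthesis. Its signals were 9.16, 9.01, 9.29, 8.69 and 9.16 at 4 weeks, 8.68, 8.53, 8.80, 9.13 and 8.90 at 8 weeks and 8.60, 8.68, 9.12, 9.01 and 9.05 at 12 weeks. They were 8.91, 8.60, 8.94, 8.96 and 8.65 at 16 weeks and 8.34, 8.20, 7.39, 8.42 and 8.21 at 20 weeks. All 20-week mice lay below all mice of every other age. The difference from 4 weeks was -0.95 (SE 0.17, adjusted p = 0.00227), and -0.77 (adjusted p = 0.0014) without 20-week mouse 3, while at 8, 12 and 16 weeks it was -0.26, -0.17 and -0.25. After quantile normalization it fell at all 4 ages, by 0.60, 0.58, 0.44 and 1.04.

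Cds1 encodes a CDP-diacylglycerol synthase, which serves phosphatidylinositol synthesis. Cds1 signals were 7.34, 7.49, 7.39, 6.73 and 7.13 at 4 weeks, 6.90, 6.92, 7.39, 7.36 and 7.21 at 8 weeks and 6.90, 6.79, 7.07, 6.85 and 6.93 at 12 weeks. They were 7.02, 6.47, 6.35, 6.34 and 7.05 at 16 weeks and 6.85, 6.61, 6.22, 6.79 and 6.43 at 20 weeks. The 20-week mice overlapped 4-week mouse 4 and lay below the other 4-week mice. The differences were -0.06, -0.31, -0.57 and -0.64 in age order (SE 0.16), with adjusted p = 0.059 at 16 weeks and 0.0361 at 20 weeks. The 20-week difference without mouse 3 of that age was -0.55 (adjusted p = 0.045). Without that mouse the 16-week fall of 0.57 passed as well, with an adjusted p under 0.05. The 20-week call ended in 12 of 36 alternatives, among them leaving out 4-week mouse 1, 2, 3 or 5 or 20-week mouse 2 or 5, with adjusted p from 0.00742 to 0.214 over the 36. Its 2 probe sets gave -0.64 and -0.63 at 20 weeks, and the first of these passed singly.

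The other 4 assembly genes did not pass. Acsl3, which activates fatty acids, had differences of 0.44 and 0.41 at 8 and 12 weeks. Lpin1, a phosphatidate phosphatase, and Dgat1, a diacylglycerol acyltransferase, had their lowest mouse of the series in 20-week mouse 3, at 7.85 and 4.51. Dgat2 differences lay between -0.42 and -0.12.

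A further list held 56 measured genes of the same routes. Its calls were 2 higher and 1 lower at 8 weeks (beside 1.48% and 0.78% of all genes), 6 and 2 at 12 weeks (beside 5.66% and 1.36%), 1 and 2 at 16 weeks (beside 1.71% and 1.68%) and 1 and 2 at 20 weeks (beside 1.14% and 1.52%). Stard4, a cytosolic sterol carrier, fell at every age, by 1.34, 1.43, 1.44 and 1.28 (SE 0.19), with adjusted p = 0.000274, 0.000105, 8.22e-05 and 0.000391. Its 4-week mice had 4.44 to 5.57 and the mice of all later ages 3.34 to 4.12. Acss2, which makes acetyl-CoA from acetate, rose by 0.77, 0.91 and 0.83 at 8, 12 and 16 weeks (adjusted p = 0.0294, 0.00484 and 0.0143). Tm7sf2, a sterol reductase, fell by 0.94 at 12 weeks and by 0.99 at 16 weeks. Pgd, of the NADPH-making pentose phosphate pathway, rose by 0.70 at 12 weeks, and Plin2, a lipid droplet coat protein, fell by 1.26 at 20 weeks (adjusted p = 0.0315). Lpin2 rose by 0.38 at 20 weeks and by 0.31 at 8 weeks. It passed at 12 weeks as well, with a mean of 4.99 against 4.71 at 4 weeks.

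Pairs of genes in most role groups had a higher median correlation over mice than pairs of all expressed genes. With each of the 25 values taken as its difference from its age mean, the median over pairs was 0.114 for 11696 expressed genes. It was 0.558 in the 6 assembly genes, 0.551 in the 4 fatty acid synthesis genes, 0.497 in the 3 export genes, 0.381 in the 6 expressed genes from squalene to cholesterol, 0.294 in elongation and desaturation, 0.277 in the 4 expressed regulators and 0.12 in the 5 expressed mevalonate genes. Between the sterol and the fatty acid synthesis genes it was 0.0954. Without 12-week mouse 3 and 20-week mouse 3 the order changed. The median was then 0.418 from squalene to cholesterol, 0.373 in export, 0.364 in assembly and 0.354 in fatty acid synthesis. It was 0.352 in the regulators, 0.279 in elongation and desaturation and 0.118 in the mevalonate genes, beside 0.127 over all expressed genes. Over the 11 expressed sterol genes pooled, it was 0.223 with all arrays and 0.418 without these mice. Without the 3 arrays of lowest correlation, named below, the export median fell from 0.497 to 0.144 and that of assembly from 0.558 to 0.246. Fatty acid synthesis then had 0.608, squalene to cholesterol 0.477 and the regulators 0.319. Elongation and desaturation had 0.258 and the mevalonate genes 0.186, beside 0.12 over all expressed genes. The high medians of export and assembly thus depended on a few arrays. These points share their arrays and RNA and are given as a description.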

How the data were processed

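Total RNA from salivary glands of 25 male mice was hybridized to Affymetrix Mouse Genome 430 2.0 arrays, 1 mouse per array. The authors deposited 1 table of log2 probe set values (0.13 to 16.94), already background-corrected, normalized between arrays and summarised, by GCRMA per the study's methods and by RMA per the submitters' processing notes, with versions not given in the sources used here. No raw intensities were used, and no probe was flagged as near background, so the number of arrays limits the precision.

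Of 45101 probe sets, 34958 had 1 symbol in the platform annotation, 932 had several and 9211 were not listed, and 34754 of the first matched the gene table. A gene was the mean of its probe sets above the median level of 3.27 (all of its probe sets where none was), giving 18194 genes. The mice of an age are separate animals, labelled as such.

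Ages were compared in limma 3.58.1 (R 4.3.3) over all 25 arrays, with contrasts against 4 weeks and between neighbouring ages, an F-test over 4 polynomial terms of age, and B-statistics with a threshold of 1.5 and a prior share of changed genes of 0.01. All tests were two-sided, and p-values were adjusted by Benjamini-Hochberg over every gene measured. The limma code was also tested on simulated data. Alternatives were the value of a gene (mean of all probe sets, brightest probe set, probe sets singly), a filter on dim genes, quantile normalization, array weights, a trended robust prior, a block by replicate number, fits of 2 ages alone, a prior share of 0.05, and fits leaving out arrays. Motifs were searched on both strands of whole RefSeq windows: the sterol regulatory element, the E-box, the CCAAT box (CCAAT) and the GC box (GGGCGG). The CCAAT box was in 52.4% of the member windows and 37.4% of all windows. The GC box was in 61.9% and 35.7%. These shares were not tested. Correlations were set beside all pairs of expressed genes and not a sample of them. Summaries used Python 3.11.15 with numpy 2.4.6, pandas 2.3.3 and matplotlib 3.10.9.

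The members, role groups, pathway list and marker lists were chosen with earlier results of these data known. Values are given mouse by mouse for members that passed a test and for Srebf1, Srebf2, Hmgcs1, Fasn, Scd1, Apoe and Fdft1 whatever they showed. For the other members the text gives ranges and counts, and the largest difference of each role group. At most 4 genes of the pathway list were named per contrast, by smallest adjusted p. Cyp51, Me1, Acaca, Dgat2, Ucp1 and Cidea were described further after their values were seen.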

Additional observations from a re-analysis of the deposited data

Results flagged for a closer look

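In 9 of 70 groups of 5 mice, over the 14 genes given mouse by mouse, the highest or lowest mouse stood farther from its nearest neighbour than Dixon's 95% criterion allows, where chance flags about 1 in 20 groups. At 4 weeks this was the Srebf1 log2 signal of 5.40 in mouse 4, the lowest of its age. At 8 weeks it was the Sc5d signal of 7.11 in mouse 4, also the lowest. At 12 weeks mouse 2 was the highest in Srebf1 (8.33) and in Dhcr7 (8.80), and mouse 3 the highest in Fasn (10.8). At 20 weeks mouse 3, the array of lowest correlation with its age, was the lowest in Sc5d (5.51), Gpam (7.39) and Apoe (3.46), and mouse 5 the lowest in Scd1 (7.39). Over all 39 genes 28 of 195 such groups met the criterion, 8 of them through 20-week mouse 3. These groups share the same arrays and no rate over all genes was computed. The excess over 1 in 20 therefore cannot be assigned to these genes. The value of 12-week mouse 2 bears on the 12-week calls, which were counted above with and without that mouse. The array of 20-week mouse 3 bears on the 20-week values and on calls at other ages, since all ages were fitted together. Member calls that changed without it were given above.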

How the results depend on the processing

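With all arrays, 1, 7, 1 and 1 members rose at 8, 12, 16 and 20 weeks, 0, 0, 0 and 2 fell, 5 passed the F-test and 3 the B-statistic. Of 369 recounts under alternatives, 280 stayed within 1.5 times of these. Array weights gave 5, 11, 6 and 5 higher, 5, 5, 4 and 7 lower, and 19 by the F-test, while calls over all genes grew to 6.84%, 20.5%, 8.61% and 13.5% higher, 6.1%, 34.4%, 11.3% and 22.4% lower, and 37.7%. Quantile normalization gave 2 higher at 12 weeks (3.62% of all genes). It gave 2, 3, 3 and 3 lower at 8, 12, 16 and 20 weeks (1.75%, 2.77%, 3.35% and 3.74%). The brightest probe set gave 2 higher at 8, 16 and 20 weeks and 1 lower at 20 weeks. Beside these stood 1.86%, 2.28% and 1.14% of all genes higher and 1.34% lower. Probe sets tested singly gave 2, 2 and 3 higher at 8, 16 and 20 weeks and 1 lower at 16 weeks. For these no share over all probe sets was computed. Testing only genes with an expressed probe set gave 2 higher at 8 weeks (3.31% of those genes) and 1 lower at 16 weeks (2.76%). Fits of 2 ages alone gave 1 lower at 8 weeks (0.396% of all genes), and 0 higher and 0 lower at 20 weeks (0.0495% and 0.209%). The trended robust prior gave 1 lower at 20 weeks (1.47% of all genes) and 1 by the B-statistic (1.76%). Without 20-week mouse 3, the array of correlation under 0.9, 3, 2 and 3 were higher at 8, 16 and 20 weeks, 1 and 2 lower at 8 and 16 weeks, and 8 passed the F-test, as all genes went to 5.14%, 4.11% and 6.23% higher, 1.68% and 3.23% lower, and 12.1%. The next 2 settings were chosen after seeing the data. Leaving out 12-week mouse 3 as well gave 3, 2 and 3 higher at 8, 16 and 20 weeks, and 1 and 2 lower at 8 and 16 weeks (all genes: 4.47%, 3.74%, 5.9%, 1.46% and 2.96%). Leaving out the 3 arrays of lowest correlation (16-week mouse 2 and 20-week mice 3 and 5) gave 5, 12, 7 and 5 higher, 4, 2, 4 and 4 lower, and 12 by the F-test, beside 9.41%, 19.6%, 11.9% and 12.9% higher, 7.15%, 23.7%, 21.4% and 19.2% lower, and 25.7% of all genes. Leaving out each array in turn gave 1 to 3, 1 to 8, 1 to 2 and 1 to 3 higher, 0 to 1, 0 to 0, 0 to 2 and 1 to 3 lower, 3 to 8 by the F-test and 1 to 4 by the B-statistic, the last at 1 without 4-week mouse 1, 2, 3 or 5. Calls over all genes moved in these fits too. At 12 weeks the 1 higher member stood beside 463 of the 18194 genes, and the 8 beside 2418. With the replicate number as a block, 1 was lower at 20 weeks (1.34% of all genes), 3 passed the F-test (3.61%) and 1 the B-statistic (1.68%). Mice of the same number did not deviate together (median correlation of -0.0429 over 50 pairs, beside 0.00732 over 200 other pairs), so the numbers do not pair the mice. The member median at 12 weeks was 0.03 under quantile normalization and up to 0.41 elsewhere. Of 432 fold changes of the 12 calls under 36 settings, 368 kept the call, 64 lost it and 0 changed sign. The causes of these shifts were not tested. A change in Nr1h3, Mvd, Sqle or Hsd17b7, all below the expressed level, may not be detectable, and the deposited values carry no measure of background.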
